A study of Xenopus laevis with 3 samples.

Results

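The gelatinous membranes and mineral bodies that lie over the sensory hair cells of the frog inner ear are built from secreted proteins. In juvenile Xenopus laevis 3 genes for secreted proteins of these structures or of the tissue near them were examined by their transcripts. They were tecta.2, a copy of the gene for the tectorial membrane glycoprotein alpha-tectorin, otos, the gene for the small secreted protein otospiralin, and sparc, the gene for the collagen and calcium binding glycoprotein osteonectin. Members were chosen by symbol, as the probe sets with exactly 1 gene symbol that names a tectorin (tecta, tectb), otospiralin (otos), otogelin (otog), otolin (otol1), otoconin (oc90) or osteonectin (sparc) gene or a copy of one. This rule found 5 probe sets (Xl-PSIDs) of 32539 on the array without the controls named AFFX. They stand for 5 of 11303 named genes with homeologs counted apart. The rule read symbols and no measured value, but members were chosen with earlier results of these data known.

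Hair cells are stimulated through an acellular structure that couples them to sound or head movement. In the otolith organs this is a gelatinous membrane loaded with otoconia, crystals of calcium carbonate grown on a protein matrix, in the auditory papillae a tectorial membrane, and in the semicircular canals a cupula. Alpha-tectorin carries a zona pellucida domain and is a main non-collagenous part of the mammalian tectorial membrane. Otospiralin is made by fibrocytes of the mammalian cochlea and vestibule, and it is not taken here as a part of these structures. Osteonectin is found in mouse otoconia and is also abundant in bone and connective tissue.

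Inner ears were dissected from juvenile animals about 3 months old that had completed metamorphosis, and all 3 arrays belong to that 1 group with no treatment or genotype given. Each replicate was RNA pooled from several animals, with 5, 5 and 6 animals and mean weights of 9.0, 9.6 and 9.6 g for replicates 1, 2 and 3. The labels give no second stage, so levels are described and no groups are compared. A pool holds all endorgans of the ear and the tissue around them, and in such bulk samples fewer cells of a type and less RNA per cell cannot be told apart. The p-values below measure the spread between these 3 pools, and the number of arrays limits their precision.

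Values are log2 intensities in arbitrary units (a.u.) after GCRMA, which models background by probe sequence and brings the arrays to a common scale, with means given ± SD over n = 3 arrays. Detection required an average of at least 4 over the arrays. The study set this lower limit on intensity for calling an Xl-PSID upregulated, and its use for detection is a choice made here. Median values were 7.57, 7.49 and 7.53 on replicates 1, 2 and 3, and no pair of arrays held identical columns. Of 12 otic marker genes measured from a list of 17, 11 were detected, beside 80.9% of all 9098 named genes. The 11 include pax2, sox2, sox9, gata3 and the hair cell myosin gene myo6, while pax8 was at the floor of the scale. Probe sets differ in how brightly they bind, so the level of 1 member is not set against that of another.

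Every member was detected. All 5 Xl-PSIDs had a mean of 4 or more and all 5 were above 4 on each array, beside 64.4% of all 32539 Xl-PSIDs by the mean and 63.1% on each array. Among the 15495 Xl-PSIDs with 1 symbol the share was 72.8%. A one-sided limma test against 4, adjusted over all 32539 Xl-PSIDs by the Benjamini-Hochberg method, passed all 5 members and 62.2% of all Xl-PSIDs. At a stricter minimum of 8, all 5 members were detected by the mean and all 5 passed limma, beside 46.9% and 43% of all Xl-PSIDs. There tecta.2.S passed with an adjusted p of 0.028 by limma and failed without replicate 2 (0.13) or replicate 3 (0.11), settings chosen after seeing the data. With 5 members and so high a background share, the count is a description of these genes and not a property that sets them apart.

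**Figure D1:**
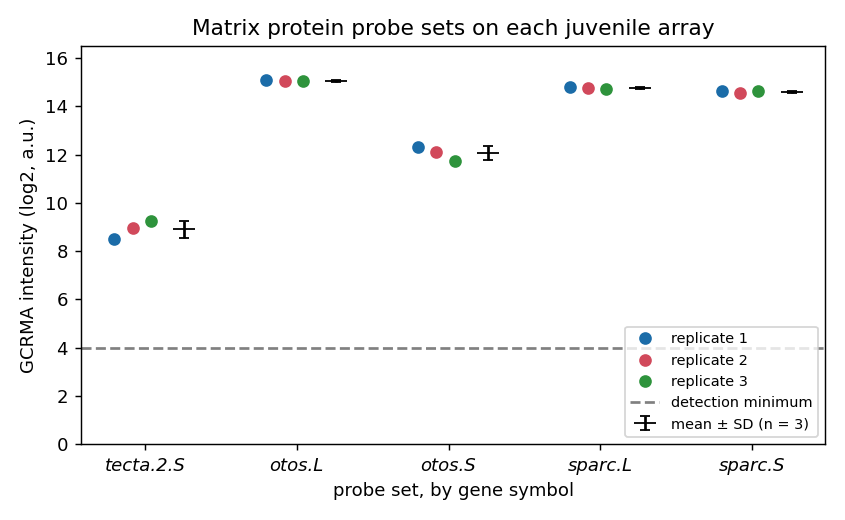
GCRMA intensity (log2, a.u.) of the 5 member probe sets on each of the 3 juvenile arrays, with the mean ± SD beside the points and the detection minimum of 4 as a dashed line. The 3 points of tecta.2.S lie between 8.52 and 9.24 and those of the other members above 11, so every point is well above the minimum.

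The tectorin gene was measured through a single Xl-PSID, that of the S homeolog tecta.2.S. It read 8.52 on replicate 1, 8.95 on replicate 2 and 9.24 on replicate 3. Replicate 3 was thus the highest and replicate 1 the lowest. The mean was 8.90 ± 0.36, with a 95% interval from limma of 8.25 to 9.55, and the adjusted p for a mean above 4 by limma was 0.00037. The range of 0.71 on the log2 scale, or 1.64-fold between replicates 1 and 3, stayed below the difference minimum of 1.5 used for pairs of arrays. The L homeolog tecta.2.L and both homeologs of tecta.1 are named in RefSeq (Xenopus_laevis_v10.1) but no Xl-PSID with 1 symbol was matched to them.

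Otospiralin transcripts were measured for both homeologs, the 2 copies of a gene that the genome duplication of this species left on the long (L) and short (S) chromosomes. The Xl-PSID of otos.L read 15.11, 15.03 and 15.05 on replicates 1, 2 and 3, with a mean of 15.06 ± 0.04 (adjusted p = 6.5e-06 for a mean above 4 by limma). These values varied by only 0.07. The Xl-PSID of otos.S read 12.31, 12.12 and 11.73, with a mean of 12.06 ± 0.29 (adjusted p = 9.1e-05 by limma). It was highest on replicate 1 and lowest on replicate 3, over a range of 0.58 or 1.49-fold, while the L copy had its lowest value on replicate 2. Whether the probes of 1 homeolog also bind transcripts of the other was not tested, since probe sequences were not used here.

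Both homeologs of sparc were measured as well, and their replicates lay close together. The Xl-PSID of sparc.L read 14.79, 14.75 and 14.71 on replicates 1, 2 and 3, with a mean of 14.75 ± 0.04 and a 95% interval of 14.67 to 14.83. The Xl-PSID of sparc.S read 14.65, 14.56 and 14.62, with a mean of 14.61 ± 0.05 and an interval of 14.52 to 14.69. Adjusted p-values for a mean above 4 by limma were 7.2e-06 for sparc.L and 7.6e-06 for sparc.S. The range was 0.09 for each copy, with the lowest value on replicate 3 for sparc.L and on replicate 2 for sparc.S.

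How far the members varied between pools was then read against all detected Xl-PSIDs, whose median SD was 0.20. The SD was smaller than that of otos.L for 4.72% of the 20942 detected Xl-PSIDs, smaller than that of sparc.L for 5.87% and smaller than that of sparc.S for 6.13%. Spread falls toward the top of the scale, however, and among Xl-PSIDs whose mean lay within 0.5 of the member the shares were 50.7%, 43.4% and 38.0%. The close replicates of these 3 Xl-PSIDs were therefore usual for their level. For otos.S 72.1% of detected Xl-PSIDs had a smaller SD, and 89.3% of the 2367 Xl-PSIDs of similar mean did. For tecta.2.S the shares were 80.6% of detected Xl-PSIDs and 80.1% of the 2831 of similar mean. A range of 1.5 or more over the 3 arrays was found for 2.89% of detected Xl-PSIDs and for none of the members.

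**Figure D2:**
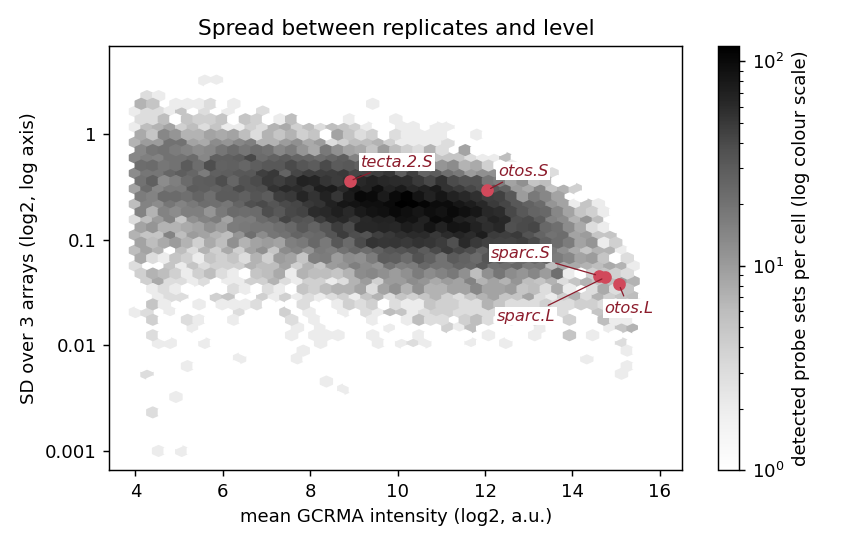
SD over the 3 arrays (log2, logarithmic axis) against mean GCRMA intensity (log2, a.u.) for the 20942 detected probe sets, shaded by number, with the 5 members as red points. The members otos.L, sparc.L and sparc.S lie at SDs of 0.04, 0.04 and 0.05 at the bright end, where most probe sets vary little, while tecta.2.S (0.36) and otos.S (0.29) lie in the upper part of the cloud.

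The 2 members that varied most went in opposite ways across the pools. For tecta.2.S the difference from the mean of the other arrays was -0.57 on replicate 1 and 0.50 on replicate 3. For otos.S the differences were 0.38 on replicate 1 and -0.48 on replicate 3. The other members, whose small spread was usual for their high level, stayed between -0.07 and 0.07 on every replicate.

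Markers of other tissues also differed between these pools. Their counts of detected genes stand beside 80.9% of all 9098 named genes. All 8 skeletal muscle genes of a fixed list were detected. The median level of their 15 detected Xl-PSIDs was 8.94, 8.66 and 9.85 on replicates 1, 2 and 3. It was highest on replicate 3, as tecta.2.S was, and lowest on replicate 2, whereas tecta.2.S was lowest on replicate 1. In this list myh4 (9.22, 6.70 and 6.62) and the brightest Xl-PSID of atp2a1 (11.91, 11.79 and 11.69) were highest on replicate 1. The other detected Xl-PSIDs of the list were highest on replicate 3. Of 8 neuron genes 7 were detected, with syt1 at 2.80 ± 0.15, and the median of 13 Xl-PSIDs was 11.33, 10.11 and 9.10, highest on the replicate where otos.S was highest. The limma test above 4 passed 6 neuron genes, beside 79.3% of named genes. Syn1 was detected by its mean but did not pass, and read 5.70, 3.57 and 3.10 on replicates 1, 2 and 3. The difference from the other arrays had a median of 1.38 for muscle on replicate 3 and 1.32 for neurons on replicate 1, against 0.00 and 0.01 over all detected Xl-PSIDs. Pigment cell genes, of which 2 of 3 measured were detected, had a median difference of -0.67 on replicate 1, where tecta.2.S was lowest. Otic markers had a median difference of 0.32 on replicate 1 and -0.18 on replicate 3. On replicate 3 the fibroblast list was at -0.33 over 11 Xl-PSIDs. The bone list was also at -0.33 there, but over only 2 Xl-PSIDs that did not move together. That of bglap was lowest on replicate 3 and that of alpl was lowest on replicate 2. Detected genes among those measured were 5 of 6 for skin, 2 of 3 for Schwann cells and 4 of 4 for erythrocytes. They were 2 of 2 for endothelium and 2 of 3 for leukocytes. Median differences of these lists from skin to leukocytes, and of the cartilage list, lay between -0.25 and 0.23 on every replicate. Single Xl-PSIDs within these lists varied more. The erythrocyte gene hbd read 7.83, 9.12 and 6.41 on replicates 1, 2 and 3. An Xl-PSID of the Schwann cell gene mbp read 11.85, 11.87 and 10.62. The 2 endothelium genes went opposite ways, with pecam1 highest and tek lowest on replicate 3. The skin median does not show its gland peptide genes, whose values were lower on replicate 3, where tecta.2.S was highest and otos.S lowest. Xenoxin1 read 7.49, 7.99 and 1.89 on replicates 1, 2 and 3, levi.2 read 8.34, 8.41 and 5.25, and the brightest Xl-PSID of xt6l read 10.35, 10.40 and 7.22. Xenoxin1 was detected by its mean but did not pass the limma test above 4 (adjusted p = 0.31), which 4 skin genes passed. The study measured RNA integrity for each replicate and reports that all met its minimum. Control transcripts had a 5′ minus 3′ difference, a possible sign of RNA quality, of -1.13, -1.04 and -1.36 for gapdh on replicates 1, 2 and 3. For ef1a it was -3.13, -3 and -3.87, and both were lowest on replicate 3. For actin it was -12.63, -12.62 and -12.57. Values without the AFFX controls ran from 1.62 to 15.93, so a difference this large places the 5′ value near the floor of the scale. The actin difference therefore cannot be compared closely between replicates, and what it means for RNA quality was not tested. The part of these differences in the values of tecta.2.S and otos.S was not tested.

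**Figure D3:**
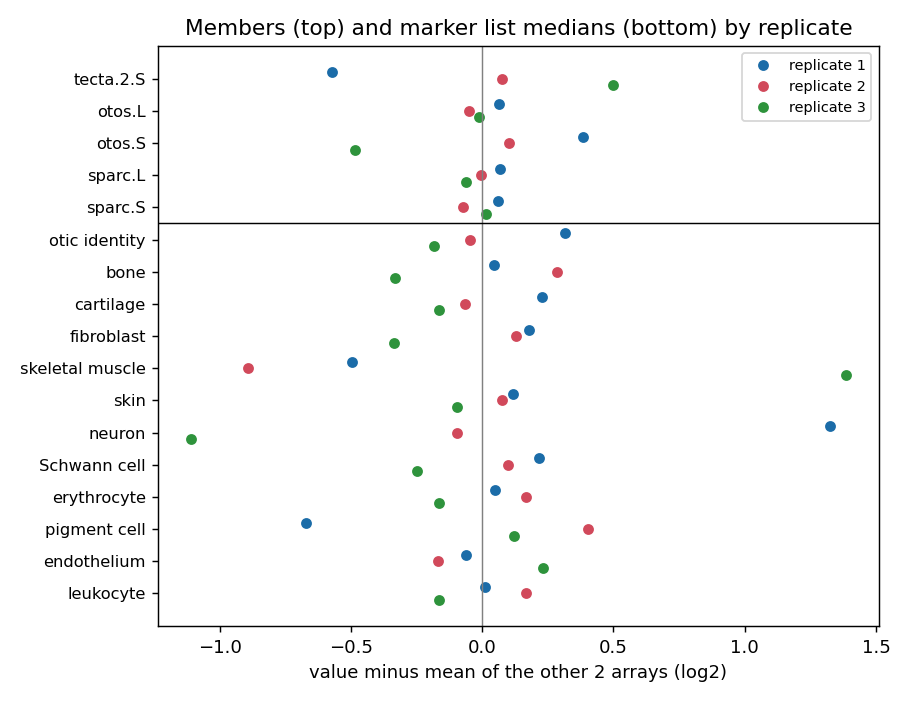
Value on each array minus the mean of the other 2 arrays (log2), for the 5 members above the line and as medians over the detected probe sets of 12 marker lists below it, with 1 colour per replicate. The neuron list reaches 1.32 on replicate 1 and the muscle list 1.38 on replicate 3. The members otos.L, sparc.L and sparc.S stay within 0.07 of 0, at a level where most probe sets vary little.

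Bone and connective tissue also express sparc, so their markers were read beside it. Among all 9098 named genes the detected share was 80.9%. Of 4 bone genes measured from a list of 10, 2 were detected, the osteocalcin gene bglap (10.56, 11.61 and 10.12 on replicates 1, 2 and 3) and the phosphatase gene alpl (10.92, 10.19 and 10.86). The defining bone factor sp7 was at 1.82 on its Xl-PSID with a symbol, below the minimum. The collagenase mmp13 had a mean of 3.66 ± 1.04, also below it, but read 4.09, 2.47 and 4.41 on replicates 1, 2 and 3. Without replicate 2, 3 bone genes were detected. The study assigns sp7 to another Xl-PSID, which it reports as lower in juveniles than in the older larval stage. That Xl-PSID was not read here, so absence of sp7 transcripts is not shown. All 6 fibroblast genes measured from a list of 8 were detected, with a median level of 13.41, 13.26 and 12.69 on replicates 1, 2 and 3. The median range of their Xl-PSIDs over the arrays was 0.44, so this level median moved more than most of them did. The cartilage genes col2a1 and matn1 were detected too. From which of these tissues the sparc transcripts came was not tested.

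Other genes of the acellular matrices came next, from a list of 20 genes of the otoconial and tectorial matrices. Only 8 had an Xl-PSID with 1 symbol, and 7 of these were detected, beside 80.9% of all 9098 named genes. The 7 include tecta.2.S itself, and all 7 passed the limma test, beside 79.3% of named genes. Otoa, whose product otoancorin anchors these membranes to the epithelium in mice, read 13.09, 12.97 and 12.87. For emilin2, an elastic fibre glycoprotein, the Xl-PSID of emilin2.L read 9.42, 9.88 and 9.33, whereas that of emilin2.S was at 2.06 ± 0.00 and was not detected. Collagens of types II and IX form the fibrils of the mammalian tectorial membrane, and means were 14.14 ± 0.21 for col2a1, 14.69 ± 0.11 for col9a1, 13.53 ± 0.27 for col9a2 and 14.80 ± 0.10 for col9a3. These collagens are also cartilage genes, and the tissue of origin was not tested. Ahsg, the gene for the serum glycoprotein fetuin-A, was at 2.47 ± 0.03 and was the measured gene of this list that was not detected.

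Several defining matrix genes could not be read. No Xl-PSID with 1 symbol was matched to oc90, otol1, otog, otogl, tectb, ceacam16 or strc. Of 14 RefSeq genes whose symbols meet the rule for members, 9 were without such an Xl-PSID, among them both homeologs of oc90, the main matrix protein of mammalian otoconia, and both of tectb. Since 16765 Xl-PSIDs had no row in the gene table, transcripts of these genes may be present on the array under no name, and their levels were not analysed here.

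Genes tied to the calcium, carbonate and proton balance of growing otoconia were next. Of 6 genes measured from a list of 15, 5 were detected, beside 80.9% of all 9098 named genes. The plasma membrane calcium pump atp2b1 had a mean of 13.22 ± 0.10 on its brightest Xl-PSID and 10.26 ± 0.13 on its other. Its relative atp2b4 had a mean of 11.54 ± 0.33. The carbonic anhydrase ca2 was at 12.65 ± 0.12, and cyba, a subunit of the NADPH oxidase that otoconia need in mice, was at 9.20 ± 0.12. The copy slc26a4.3.S of the pendrin anion exchanger was at 4.37 ± 0.02, just above the minimum, with slc26a4.3.L and slc26a4.1.L at the floor of the scale. Otop3, a relative of the proton channel gene otop1, read 3.82, 3.34 and 3.91 and was not detected. For otop1 and nox3, both needed for otoconia in mice, no Xl-PSID with 1 symbol was matched.

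The relatives and partners of osteonectin were also read, and their counts stand beside the 80.9% of all 9098 named genes that were detected. The SPARC family genes spock2 (10.53 ± 0.18), smoc1 (7.24 ± 0.45) and fstl1 (11.77 ± 0.32) were the 3 measured of 7, and all were detected. Of 11 collagen and other partner genes measured from a list of 13, 9 were detected. The fibrillar collagens, which osteonectin binds, were at 13.22 ± 0.46 for col1a1, 13.79 ± 0.05 for col1a2 and 14.32 ± 0.03 for col3a1. The basement membrane collagens varied more between pools, with 8.84, 7.18 and 6.70 for col4a1 and 7.45, 6.40 and 6.60 for col4a2, both highest on replicate 1. The collagen chaperone serpinh1 was at 11.27 ± 0.10 on its brightest Xl-PSID, and its other 4 Xl-PSIDs were below the minimum. Col5a1 (3.95 ± 0.15) and vegfa (3.37 ± 0.03) were below 4.

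Genes of the fibrocytes and fluid-forming cells that surround the sensory organs were set beside otos. All 9 genes measured from a list of 14 were detected and passed the limma test, beside 80.9% and 79.3% of named genes. The fibrocyte transcription factor pou3f4 read 13.89, 13.86 and 13.93 for its L homeolog and 12.16, 11.93 and 11.43 for its S homeolog. The gap junction gene gjb2 was at 14.89 ± 0.03 on its brightest Xl-PSID and 13.76 ± 0.05 on its other. The sodium pump subunit atp1b1 was at 14.31 ± 0.10, and the cotransporter slc12a2 read 8.66, 9.05 and 9.25. Genes of this list thus differed in which replicate was highest, and the median difference of its 12 detected Xl-PSIDs from the other arrays was -0.02 on replicate 1 and 0.10 on replicate 3. The water channels aqp1 and aqp3 were at 11.12 ± 0.22 and 13.77 ± 0.11 on their brightest Xl-PSIDs. That of aqp1.S was at 2.21 ± 0.37 and was not detected. For coch, the gene for a main matrix protein of mammalian cochlear fibrocytes, no Xl-PSID with 1 symbol was matched.

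**Figure D4:**
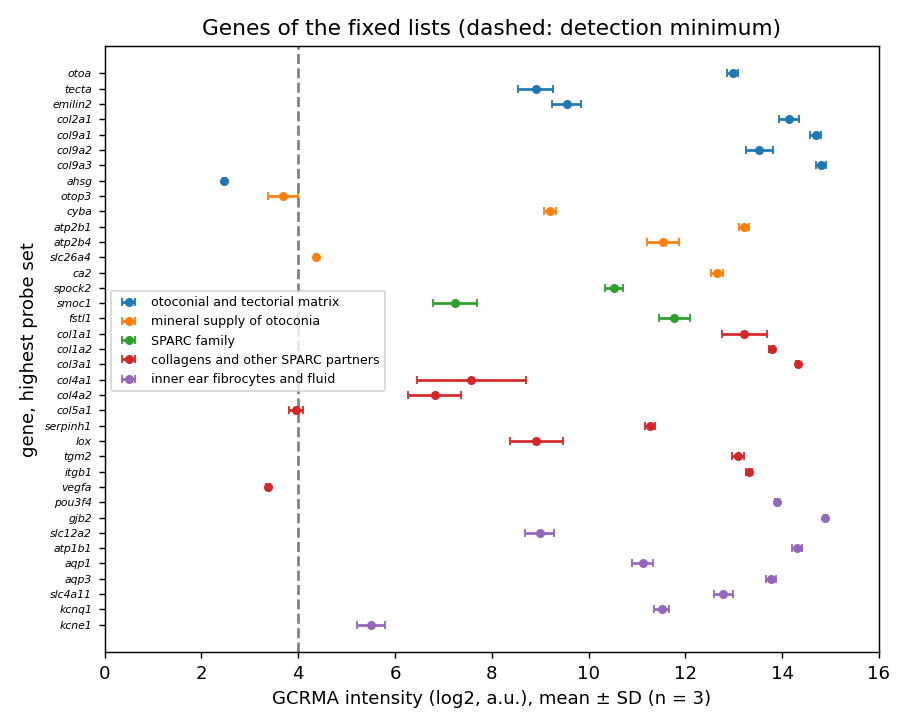
Mean ± SD (n = 3) GCRMA intensity (log2, a.u.) of the highest probe set of each measured gene in 5 fixed lists, coloured by list, with the detection minimum of 4 as a dashed line and tecta standing for tecta.2.S. Of the genes shown, ahsg, otop3, col5a1 and vegfa have means below 4.

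A pair of genes that the rule leaves out, chosen after the files were seen, complete the account of the membranes. Zpld1, which encodes a zona pellucida domain protein of the cupula in fish, read 12.38, 12.44 and 12.49 on replicates 1, 2 and 3, with a mean of 12.44 ± 0.05. The 2 Xl-PSIDs of otogl2.L, a gene for which RefSeq gives otog as an older name, were at 1.95 and 1.93 and were not detected.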

How the data were processed

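The authors hybridised inner ear RNA of 3 juvenile replicates to Affymetrix GeneChip Xenopus laevis arrays, preprocessed the scans with GCRMA in JMP Genomics and deposited 1 log2 intensity per probe set and array. The sources used here do not state whether juvenile and larval arrays were normalized together. GCRMA sets unexpressed probe sets to a floor near 2. The 96 control probe sets named AFFX were left out, which left 32539, with no missing values. Reporter control probe sets, named RPTR, were not left out. The platform's gene table gave 1 symbol for 15495 of these and several for 279, which stayed unnamed, and did not list 16765. Symbols for the lists were updated by Entrez ID from RefSeq (Xenopus_laevis_v10.1), used for names only.

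Detection was tested with limma 3.58.1 in R 4.3.3 (intercept fit, eBayes, one-sided test above 4, Benjamini-Hochberg adjustment at 0.05 over 32539 probe sets), tested on simulated data. Other values were computed in Python 3.11.15 with pandas 2.3.3. Members and gene lists were chosen with earlier results of these data known. All members were named, and at most 8 genes of each of 5 gene lists in list order, beside undetected genes, genes without a probe set, and genes of 12 marker lists. List genes joined homeologs and numbered copies and took the probe set of highest mean. Alternatives were other minimums, limma settings, normalizations, probe set rules and leaving out each replicate. The study's comparison of stages was not run, because the arrays form a single group.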

Additional observations from a re-analysis of the deposited data

How the results depend on the processing

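All 26 member counts under other minimums (3, 5, 6 and 8), limma settings, normalizations and left-out replicates lay within 1.5 times the reported count, as did 175 of 180 list counts. All 5 members stayed detected at each of these minimums and without each replicate. These counts could not have changed, since the lowest member value on any array was 8.52, above every minimum. All 25 alternative means of members moved by less than 1 SD, at most by 0.0073 with other normalizations and 0.19 with a replicate left out. For most of these settings that outcome was fixed in advance. Leaving out 1 of 3 arrays cannot move a mean by 1 SD, and a shift of arrays to a common median leaves it unchanged. The adjusted p of the limma test above 4 reached at most 0.0071 for tecta.2.S and 0.0027 for otos.S. Against 8, a test whose left-out replicates were added after seeing the data, tecta.2.S passed (adjusted p = 0.028 by limma) but not without replicate 2 (0.13) or replicate 3 (0.11), which left 4 of 5 members passing. Marker list counts that moved were cartilage (1 gene with probe sets of shared transcripts dropped) and, at a minimum of 8, skin (3), neuron (4), endothelium (0) and leukocytes (1). No paired analysis was possible because the arrays form 1 group. Background correction could not be varied, because scans were not analysed here. Groups of 3 samples were not tested for single samples that stand apart.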
